A study of Mus musculus with 8 samples.

Results

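The oviduct of control mice was described at the preimplantation stage of pregnancy, on gestation day (GD) 2, from the 4 arrays that the labels call control oviduct among the 8 arrays of the series. The animals were CD-1 females, an outbred strain, that received corn oil without Gen on PND1–PND5. At 6–8 weeks of age they were superovulated with gonadotropins and mated, oviducts were taken 48 hr after human chorionic gonadotropin (hCG), and embryos were removed before RNA was isolated. Each array (control 1 to control 4) carried RNA of an independent biological replicate, and the number of mice behind each was not given in the sources used here. The tissue was the whole oviduct, so the infundibulum, ampulla and isthmus and all their layers were mixed in each RNA, and every mouse carried the gonadotropin treatment. Of 41174 noncontrol probes on the array, 24961 (60.6%) were marked by the scanner software as well above background on all 4 arrays, and a gene is counted as detected here when its brightest probe met that rule. The genes with a symbol numbered 19511, and 14278 of them (73.2%) were detected in this sense. Counts of detected genes in the lists below are to be read against that share.

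The oviduct carries gametes and early embryos. Its folded mucosa is lined by ciliated cells, which beat and move the egg, and by secretory cells, which release the glycoproteins, protease inhibitors and nutrients of oviduct fluid. A thin stroma with vessels, nerves and immune cells lies beneath, then smooth muscle whose contractions propel the embryo, and an outer mesothelium. Estrogen and progesterone, acting through nuclear receptors, set secretion, ciliation and contraction through the days when the embryo is in the tube.

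Signals below are the scanner's processed intensities scaled to a common 75th percentile of the array, and 4 values in a row are those of controls 1, 2, 3 and 4. SDs are those of log2 signal over these 4 arrays (n = 4). A probe's brightness depends on its sequence as well as on the amount of RNA, so levels are set side by side between arrays and not between genes.

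The 4 arrays lay on 1 slide and were scanned together. Between 25359 and 28934 probes were well above background on an array (61.6% to 70.3%), fewest on control 3 and most on control 4. The lowest signal that still counted as well above background was 26.2 to 60.6 by array, and the highest that did not was 36.7 to 79.3. Across detected genes, pairs of arrays correlated at 0.981 to 0.992, a value over genes that are not independent. The median SD of a detected gene was 0.170, against 0.0798 for the 7 spike-in probes measured on all arrays and 0.0427 among the spots of a repeated probe within an array. Control 1 stood apart from the rest: it held the highest or the lowest value in 38.3% and 35.3% of the 14229 detected genes with no saturated or outlier spot, and without it the median SD was 0.108.

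**Figure D1:**
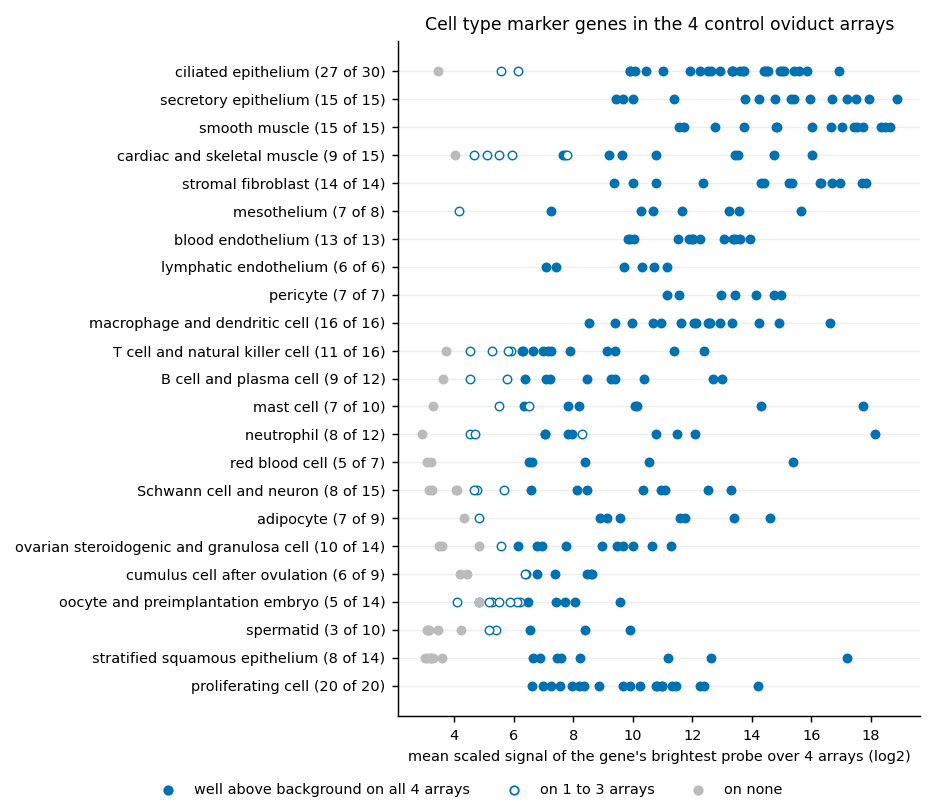
Mean scaled signal (log2) of each marker gene over the 4 control arrays, by cell type list, with filled points for genes well above background on all 4 arrays, open points for 1 to 3 arrays and grey points for none; the counts after each name are genes detected of genes with a probe. All 15 smooth muscle genes and all 15 secretory epithelial genes were detected, against 5 of 14 oocyte and embryo genes and 3 of 10 spermatid genes.

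Among the 25 genes with the brightest probes, 12 encoded ribosomal proteins or the ribosomal fusion protein Fau, and 45 of the 100 brightest did. The others included the secretory product Ovgp1, the complement component C3, the contractile genes Myl6, Myl9, Acta2 and Tagln, the growth factor precursor Grn, the ferritin chain Fth1, the glutathione transferase Gstm1 and the pyridoxal kinase Pdxk. These 25 had SDs of 0.071 to 0.23 and a median of 0.138. The median SD was 0.120 for the 100 brightest genes. With the detected genes split into 4 groups by mean signal, it was 0.271 in the dimmest group and 0.126 in the brightest. The 25 were thus no steadier than other bright genes.

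The brightest probe of all 14278 was annotated to Pigt, an enzyme subunit of membrane anchor attachment, at 590286, 668570, 774019 and 604640. It was saturated on at least 1 array, as were the probes next in order, of the mitochondrial leucyl-tRNA synthetase Lars2 and the receptor phosphatase Ptprz1. A second Pigt probe read only 511, 477, 392 and 476, and the next brightest Ptprz1 probe 1029, 946, 868 and 944, so for these genes the place in the order belongs to a single probe. The Pdxk value rested on 1 of 3 probes in the same way, and its other probes averaged 43349 and 1166. Rps18, a small-subunit ribosomal protein, had a second probe at 224207 to 266994.

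Ovgp1, the oviductal glycoprotein that coats the zona pellucida of the egg and is the classical product of oviduct secretory cells, read 442219, 493612, 553601 and 426086 (SD 0.17). Its probe lies at chr3:105805359-105805418 of the mouse mm7 assembly, and a second Ovgp1 probe read 65256, 53813, 54276 and 56841. All arrays carried Ovgp1 at a high signal, with the highest array 1.30-fold above the lowest. C3 read 346888, 423252, 492423 and 449577, lowest on control 1. Its other probe, also lowest there, read only 460, 756, 920 and 1032, so the place of C3 in the order rests on 1 probe as well.

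Markers of the secretory epithelium were all detected, 15 of 15, with a median SD of 0.218. The simple-epithelial keratins Krt8 and Krt18, the junction protein Cldn3, the adhesion molecules Epcam and Cdh1 and the transcription factors Sox17 and Pax8 were among them. The whey acidic protein family member Wfdc2 read 128446, 224693, 215931 and 186697, lowest on control 1. In bulk tissue RNA such as this, fewer cells of a type and less RNA per cell cannot be told apart.

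Of 30 ciliated cell genes, 27 were detected. Foxj1, the transcription factor that drives motile ciliogenesis, read 62342, 44336, 44793 and 48039, and Dynlrb2, a dynein light chain, 148867, 118551, 103199 and 126440. Tektins of the axoneme (Tekt1, Tekt2, Tekt4), the axonemal dyneins Dnah5, Dnah9 and Dnah11 and the radial spoke genes Rsph1, Rsph4a and Rsph9 were also present on every array. The cilium list leaned to controls 1 and 4, with median deviations from each gene's mean of 0.19, -0.09, -0.22 and 0.12 on the log2 scale, and control 3 held the lowest value in 18 of the 27 detected genes (66.7%, against 23.2% of all detected genes). The lists were chosen with earlier results of these data known, so such shares, here and below, describe the lists and support no pattern. Spag16, a central-pair protein, varied most of the 27, at 2171, 1748, 1059 and 937 (SD 0.58), although a second probe gave 394, 400, 440 and 167. The remaining genes were Rfx3 and Spag6, each well above background on 3 arrays, and Dnaic2, on none.

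Smooth muscle genes were all detected, 15 of 15, with a summed signal of 1789755, 2349676, 2324995 and 1932218. Myh11, the smooth muscle myosin heavy chain, read 95242, 158972, 156466 and 140123, and Acta2, smooth muscle actin, 298249, 404184, 408300 and 345238. Control 1 was the lowest array in 9 of the 15 genes (60.0%, against 35.4% of all detected genes), both of these included. The probes of Acta2 did not all share this order, as one of them read 26932, 19089, 20010 and 15944, highest on control 1. Myocd, the coactivator of the smooth muscle program, varied most in the list, at 2784, 1791, 4471 and 3658 (SD 0.57). A second Myocd probe put the arrays in another order, at 305, 514, 521 and 424.

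Genes known from striated muscle were also read in this smooth muscle organ. Cardiac actin Actc1 gave 48223, 81528, 75430 and 63102, the cardiac troponin Tnnt2 17860, 35738, 33248 and 26800, and the slow myosin Myh7 12627, 7911, 10549 and 14074. A second Myh7 probe gave nearly the same readings, 12398, 8036, 10464 and 13645, while a second Tnnt2 probe stayed at 9.8 to 16. In all, 9 of 15 striated muscle genes were detected (60.0%, against 73.2% of all genes with a symbol). Another 5 were detected on some arrays and Myl2, the ventricular myosin light chain, on none.

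Stromal fibroblast genes were detected in 14 of 14, blood endothelial genes in 13 of 13, pericyte genes in 7 of 7 and lymphatic endothelial genes in all 6 with a probe. Schwann cell and neuron genes were detected in 8 of 15 (53.3%, against 73.2% of all genes with a symbol). They were led by S100b, a calcium-binding protein of glia, at 14011, 10071, 7240 and 10008. The endothelial list varied little (median SD 0.146), and its receptor Flt1 read 8455, 8276, 8916 and 8962 (SD 0.06). Lymphatic genes were each highest on control 2, in 6 of 6, a place that array held in 23.0% of all detected genes. Mesothelial genes were detected in 7 of 8, with Msln, a surface protein of mesothelium, at 64198, 44498, 43084 and 59095 and Wt1, its transcription factor, at 12660, 10113, 12832 and 13446.

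Immune cells were represented first by macrophage and dendritic cell genes, detected in 16 of 16. The Fc receptor Fcgr1 read 4554, 4444, 4519 and 4499 (SD 0.015). A second probe was less even, at 1269, 1199, 1055 and 954 (SD 0.19). Of the 16 genes 14 were highest on control 3 (87.5%, against 16.6% of all detected genes). T and natural killer cell genes were detected in 11 of 16, B and plasma cell genes in 9 of 12 and mast cell genes in 7 of 10. For lists this short, these shares were near the 73.2% of all genes with a symbol. The counts alone therefore do not show that these cells were present. Hdc, the histamine-forming enzyme listed with mast cells, read 178356, 253587, 232694 and 212293. The mast cell receptor chain Ms4a2 was well above background on no array and Fcer1a on 2. Ltf, lactoferrin, listed here with neutrophils and known as an estrogen-responsive product of the reproductive tract, read 210319, 378910, 292881 and 304904, while the neutrophil elastase gene Elane was on none.

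Markers of cells from outside the oviduct wall and of squamous epithelium were detected in part. Red blood cell genes were detected in 5 of 7, adipocyte genes in 7 of 9, ovarian steroidogenic and granulosa genes in 10 of 14, genes of cumulus cells after ovulation in 6 of 9 and stratified squamous genes in 8 of 14. Over all genes with a symbol the detected share was 73.2%. For lists this short, the adipocyte, red blood cell, ovarian and cumulus lists were near that background, and the squamous list was lower, at 57.1%. The squamous list owed its bright end to Sprr2a1, a cornified envelope gene of a family with near-identical copies, at 141551, 160404, 149801 and 142376, whose other probe read only 45, 37, 33 and 41. Its basal cell factor Trp63 read 343, 250, 332 and 270, and Krt4, Ivl, Dsg1a, Dsg3, Krtdap and Pitx1 were on none. Of the 10 spermatid genes 3 were detected, led by the protamine Prm1 at 692, 1144, 1282 and 859, in females mated before collection, and Pgk2, Odf1, Smcp, Acrv1 and Akap4 were on none.

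**Figure D2:**
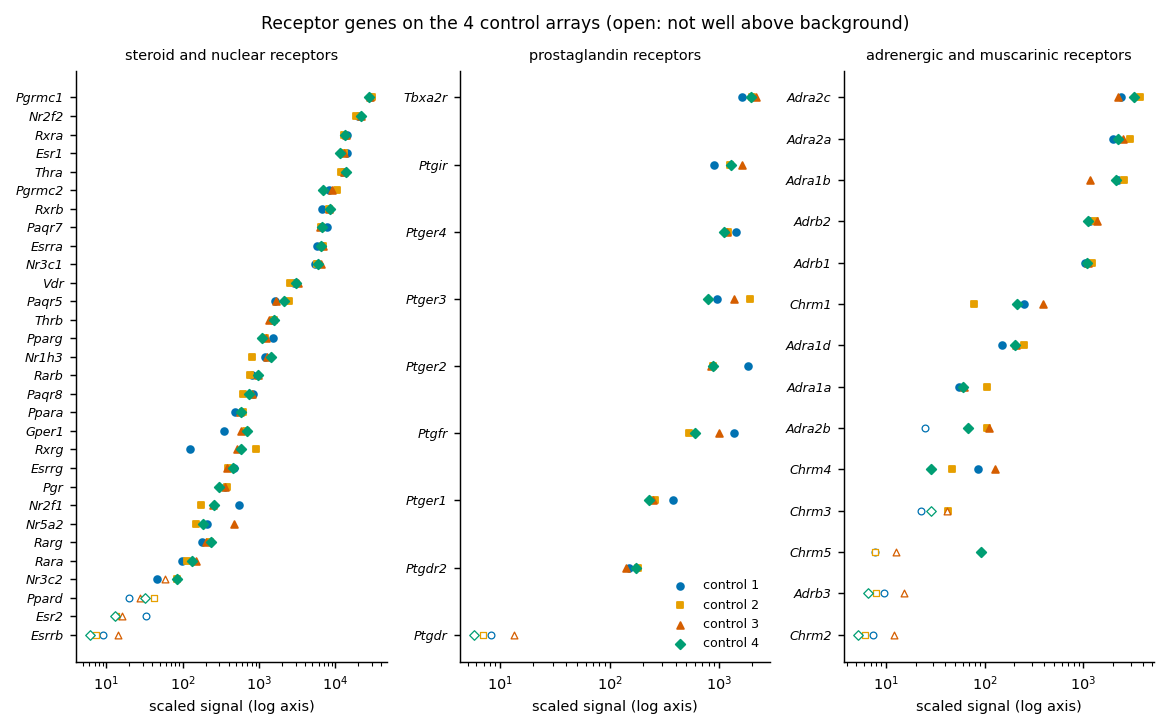
Scaled signal (log axis) of 30 of the 31 steroid and nuclear receptor genes and of all prostaglandin, adrenergic and muscarinic receptor genes with a probe on each of the 4 control arrays, with open symbols where a probe was not well above background. Esr1 stayed between 11442 and 14220 and Pgr between 298 and 381, while Rxrg ran from 124 on control 1 to 921 on control 2.

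Of the broad classes listed, receptors varied least, though more than the median detected gene. Of 169 receptor genes, 136 were detected (80.5%, against 73.2% of all genes with a symbol), and their median SD was 0.206. The median SD was 0.265 for secreted products, 0.288 for cell type markers and 0.170 for all detected genes. The classes share some genes. Of the detected receptor genes 1 had an SD above 1, the retinoid receptor Rxrg.

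Steroid and nuclear receptors were detected in 27 of 31. Esr1, estrogen receptor alpha, read 14220, 12775, 12858 and 11442 (SD 0.13) at a probe on chr10:5343241-5343300 of mm7. Esr2, the beta form, was not well above background on any array. Pgr, the progesterone receptor, read 355, 381, 353 and 298 (SD 0.15), and the membrane progesterone-binding gene Pgrmc1 28867, 30473, 28113 and 27516. The glucocorticoid receptor Nr3c1 read 5447, 5718, 6381 and 5969. These hormone receptors were close to level over the 4 arrays, unlike Rxrg at 124, 921, 516 and 585 (SD 1.25).

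Peptide hormone receptors were detected in 18 of 25. Prlr, the prolactin receptor, read 963, 525, 977 and 596, higher on controls 1 and 3. Another probe had the same higher pair, at 276, 185, 243 and 202, while one more was lowest on control 1, at 199, 210, 293 and 227. Oxtr, the oxytocin receptor of contracting muscle, read 82, 110, 115 and 78. The gonadotropin receptors were sparse, with Lhcgr on no array and Fshr on 1, and the receptor of gonadotropin-releasing hormone, Gnrhr, was on none.

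Prostaglandins contract and relax oviduct muscle, and 8 of their 9 receptors were detected. Ptger2, a relaxing prostaglandin E2 receptor, read 1837, 875, 843 and 871, highest on control 1 and close together on the other arrays. Ptger3, a contracting one, read 967, 1931, 1369 and 790, highest on control 2. Ptgfr, which binds prostaglandin F2 alpha, read 1362, 526, 991 and 597. The prostaglandin D2 receptor Ptgdr was on none. Of 13 prostaglandin synthesis genes 12 were detected on every array, and the remaining one, the inducible cyclooxygenase Ptgs2, was well above background on 3 arrays, at 241, 64, 65 and 48 over the 4.

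Adrenergic and muscarinic receptors were detected in 9 of 14 (64.3%, against 73.2% of all genes with a symbol). Adra1b, an alpha-1 receptor of smooth muscle, read 2224, 2573, 1165 and 2132, lowest on control 3. Chrm1 read 252, 79, 388 and 213 (SD 0.97), and its other probe was well above background on no array. Chrm2, the principal muscarinic receptor of many smooth muscles, was on none. Among vasoactive receptors, 10 of 17 were detected (58.8%), and the endothelin receptor Ednra read 11653, 14003, 16306 and 15111. Of 21 receptors for histamine, serotonin, purines and cannabinoids 13 were detected (61.9%). Among them the ATP-gated channel P2rx7 read 5181, 7354, 7459 and 6167 and the histamine receptor Hrh1 231, 320, 395 and 450. Growth factor receptors were detected in 29 of 30, all but Ret, and cytokine receptors in 22 of 22.

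Secreted products were detected in 170 of 216 genes with a probe (78.7%, against 73.2% of all genes with a symbol). Of 12 genes in the list of oviductal glycoprotein, chitinase-like proteins and mucins, 9 were detected. Beside Ovgp1 the list held Chia1, an acidic chitinase, at 1458, 693, 2170 and 3088, a 4.45-fold span between controls 2 and 4, which a second Chia1 probe followed at 302, 138, 438 and 636. Muc13 was on no array.

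Protease inhibitors were detected in 20 of 22. Serpina1d, an alpha-1-antitrypsin of a gene cluster whose members are near identical, read 50565, 86866, 82781 and 63006. Its neighbours Serpina1b (3182, 6608, 7585 and 4561) and Serpina1e (2399, 5228, 6149 and 3849) were likewise lowest on control 1, and probes of this cluster may read one another's transcripts.

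The epididymal-type secretions of the cystatin, CRISP and lipocalin list were detected on all 4 arrays in 7 of 16 genes, on some arrays in 3 and on none in 6. Cst8, a cystatin known from the male tract, read 35, 163, 2188 and 114, well above background on 3 arrays and highest on control 3. Cst12 followed the same order only in part, at 252, 192, 601 and 85.

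Complement and antimicrobial genes were detected in 15 of 19. Cfb, complement factor B, read 10040, 15521, 38486 and 14588, and the acute phase protein Saa3 105, 197, 2668 and 1819. Both were highest on control 3, although Saa3 was nearly as high on control 4. Haptoglobin, Hp, ran the other way, highest on control 1 at 90513 and 38653 to 56850 on the rest.

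Among growth factors 34 of 39 were detected. Gas6, the ligand of the Axl receptor family, read 191830, 179896, 182459 and 175201 (SD 0.05), and Igfbp7, a binding protein of insulin-like growth factors, 202979, 199644, 223660 and 206649 (SD 0.07). Both products hardly differed between arrays. In all, 6 of 7 such binding proteins were detected, with Igfbp1 on no array. Developmental ligands and their secreted inhibitors were detected in 22 of 25, among them the Notch ligand Jag1 at 12445, 11808, 12686 and 12204. Penk, the enkephalin precursor, was the bright member of the vasoactive and neural peptide list (15 of 21 detected) at 183842, 132516, 162981 and 164568. Lipf, gastric lipase, differed more, at 3279, 9315, 8446 and 1248 (SD 1.36), and controls 2 and 3 stood above controls 1 and 4.

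The carrier list held 21 detected genes of 26, among them the cathepsins Ctsb, Ctsd and Ctsl and the lipid carrier Apoe. Genes known from liver, Alb, Ttr and Apoa1, were well above background on none of the 4 arrays.

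Fluid and ion transport genes were detected in 24 of 28. The chloride channel Cftr read 3173 to 4378. Aqp5, a water channel of secretory epithelia, read 12403, 7749, 6016 and 5116, and Aqp8 747, 152, 422 and 72 (SD 1.50). Slc26a4, the chloride-bicarbonate exchanger pendrin, read 395, 299, 8984 and 380 (SD 2.34), so control 3 lay 30.1-fold above the lowest array. Metabolite carriers and lactate dehydrogenases for embryo nutrients were detected in 19 of 19, with a median SD of 0.151.

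Factors that mark position along the reproductive tract were detected in 18 of 26 (69.2%, against 73.2% of all genes with a symbol). The anterior gene Hoxa9 read 1631, 2265, 2202 and 1953, Hoxa10 1144, 2510, 2359 and 1357, and Hoxa11, known mainly from the uterus, 416, 823, 634 and 276. The order of the arrays was alike in these genes, with controls 2 and 3 above 1 and 4. Hoxa13, of the cervix and vagina, was at background on every array with both probes, as were Hoxd13, Hoxb13, Hoxd11 and the hindlimb and pituitary factor Pitx1. The Wnt ligand Wnt7a, of the tract epithelium, read 234, 856, 454 and 627 (SD 0.80), and the hedgehog ligand Ihh 1075, 2337, 1182 and 1232. Shh was on none.

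**Figure D3:**
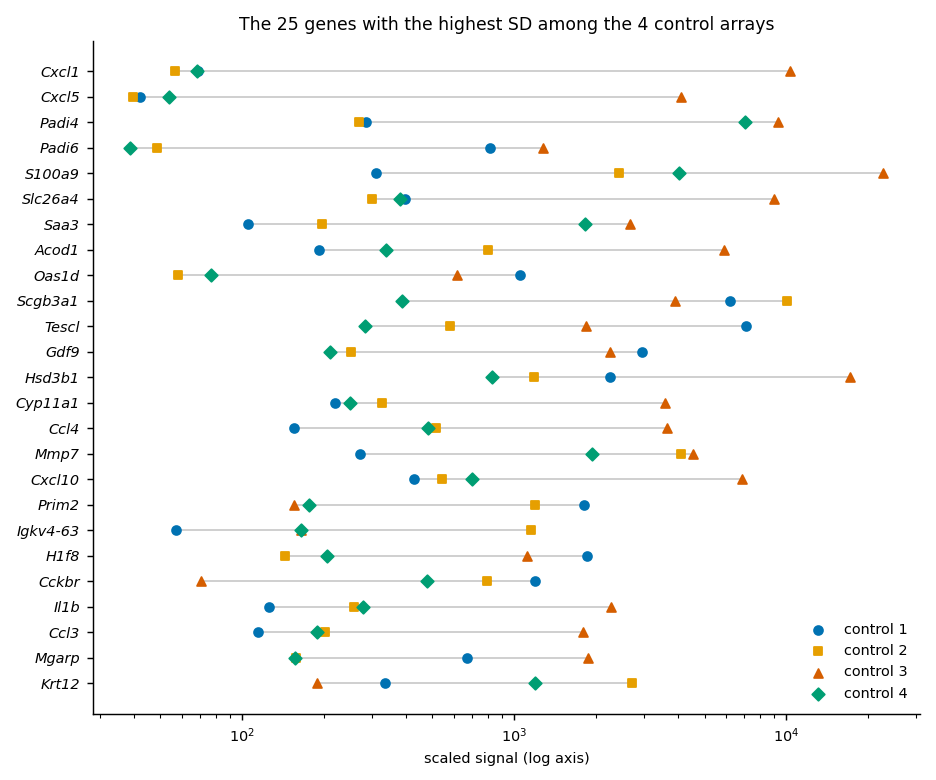
Scaled signal (log axis) on each of the 4 control arrays for the 25 detected genes with the highest SD, from Cxcl1 (SD 3.67) to Krt12 (SD 1.74). Control 3 was the highest array for 16 of the 25 and control 4 for none.

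Genes were then ranked by their SD over the 4 arrays. Of the detected genes, 149 (1.04%) had an SD above 1, and 1289 (9.03%) had a highest array at or above 2-fold its lowest. The 25 with the highest SD and no saturated or outlier spot were highest on control 3 in 16, on control 1 in 6, on control 2 in 3 and on control 4 in none. Over all 14229 genes ranked, control 3 was the highest array in 16.6%. The last gene of the 25, Krt12, had an SD of 1.74 and the next, Upk3a, 1.73. Without control 3, 12 of the 25 were among the 25 most varied.

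Chemokines led the ranking. Cxcl1, which draws neutrophils, read 69, 57, 10343 and 68 (SD 3.67) at a probe on chr5:90882059-90882118 of mm7, so that its highest array lay 182-fold above its lowest. Cxcl5, a related neutrophil chemokine, read 42, 40, 4097 and 54 (SD 3.26). In both genes the other arrays were close together and near background, though marked as well above it. Probes without that mark reached 36.7 to 79.3 by array. The closeness of these low values and the size of the fold span are limited by that floor. Cxcl10, an interferon-induced chemokine, read 426, 544, 6864 and 699, and the cytokine Il1b 125, 257, 2273 and 278. The monocyte and macrophage chemokines Ccl3 (114, 202, 1787 and 189) and Ccl4 (155, 513, 3654 and 480) and the macrophage enzyme Acod1 (191, 798, 5897 and 338) took the same form.

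The same array was high in much of the list of cytokines and chemokines, of which 21 of 29 with a probe were detected. Control 3 held the highest value in 13 of these 21 (61.9%, against 16.6% of all detected genes), and the list's median SD fell to 0.293 from 0.517 without it. Ccl2, the monocyte chemokine, read 364, 500, 18771 and 484 with an outlier spot, Csf1, the macrophage growth factor, 2751, 3021, 15810 and 3501, and Tnf 22, 48, 850 and 39. Cxcl2, Ccl20 and Csf2 were well above background on control 3 alone, at 1011, 1824 and 141. They passed that mark only through the array where they were high and are no support for the pattern. Of the receptors, Tlr2, which senses bacterial lipoproteins, read 1659, 2068, 6134 and 1789. Other members went elsewhere: Cxcl14 was highest on control 1, Il33 stayed between 2719 and 3313, and Il1a and Il10 were on no array.

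Neutrophil calgranulins varied in part with these. S100a9 read 309, 2418, 22603 and 4018 (SD 2.55) and its partner S100a8 44, 239, 2270 and 407. Both were highest on control 3, and both also separated control 1, the lowest, from controls 2 and 4. The neutrophil list as a whole was detected in 8 of 12 (66.7%, against 73.2% of all genes with a symbol). Cxcr2, the chemokine receptor of neutrophils, was well above background on control 3 only. A second Cxcr2 probe was so on no array, at 9.0, 7.6, 14.5 and 6.3. Cxcr2 passed that mark only through the array where it was high and is no support for the pattern. The 8 detected genes summed to 217090, 387780, 324210 and 315779, mostly Ltf. The part of neutrophil RNA in the chemokine values of control 3 was not tested.

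The promoters of 2 of these chemokines are printed, chosen because both genes were high on control 3 and both promoters hold the kappa B consensus. That is the site of the NF-kappa B factors, known to drive chemokine genes. A cause of the height on control 3 was not tested, and matches in promoters so chosen are no support for one. The 250 bases before each transcript start, from the RefSeq table for GRCm38.p6, follow in transcript orientation, with capitals marking matches to the consensus on either strand; adjoining capitals are overlapping matches. Cxcl1 lies on the plus strand at chr5:90890995-90891244 and Cxcl10 on the minus strand at chr5:92348890-92349139.
Cxcl1: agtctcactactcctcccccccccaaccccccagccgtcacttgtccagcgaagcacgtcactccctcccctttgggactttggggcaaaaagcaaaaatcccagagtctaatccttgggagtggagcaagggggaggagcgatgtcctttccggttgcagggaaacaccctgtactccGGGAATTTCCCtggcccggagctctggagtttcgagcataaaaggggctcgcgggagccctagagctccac
Cxcl10: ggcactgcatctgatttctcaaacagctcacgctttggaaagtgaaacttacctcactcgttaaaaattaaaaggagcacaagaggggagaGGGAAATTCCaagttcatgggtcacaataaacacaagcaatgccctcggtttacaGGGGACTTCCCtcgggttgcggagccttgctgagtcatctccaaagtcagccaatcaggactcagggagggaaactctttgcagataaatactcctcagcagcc
The matches begin 71 and 70 bases before the start in Cxcl1, and 159, 104 and 103 bases before it in Cxcl10. Of the 16 genes highest on control 3 among the 25 most varied, 14 had a promoter in the table and 3 of these held a match, the third being Mgarp, a mitochondrial protein gene. Of the 4 other most varied genes with a promoter 0 held a match. The genes were grouped by the same values that ranked them, so these counts support no cause. Among all 32851 promoter windows of this length 7.25% held a match, which is a share of windows and not of genes. None of the windows of Il1b, Ccl3, Saa3 or S100a9 did, which says only that these letters are not in this stretch.

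Some steroid-making genes were also high on control 3, the highest array in 4 of the 10 detected genes of the ovarian list (40%, against 16.6% of all detected genes). The other genes of the list were highest on control 4 in 3, on control 1 in 2 and on control 2 in 1. Hsd3b1, which converts pregnenolone to progesterone, read 2250, 1180, 17126 and 828, Cyp11a1, the cholesterol side-chain cleavage enzyme, 219, 326, 3591 and 249, and Star, the cholesterol carrier of the mitochondrion, 1238, 1160, 4040 and 1130. Second probes of Cyp11a1 (192, 282, 3409 and 210) and Star (593, 588, 1897 and 600) gave the same order of height on control 3. The steroid hydroxylase Cyp17a1 did not share it, at 669, 1628, 1168 and 866. The granulosa gene Inha did not either, at 1194, 354, 1057 and 546, nor did Foxl2, at 93, 129, 134 and 140, and Lhcgr, Cyp19a1 and Amh were on none. The summed signal of the 10 detected genes was 6823, 5933, 28383 and 5120, in which Hsd3b1 had the main part on control 3.

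Adipocyte genes were highest on control 3 in 6 of 7 detected genes (85.7%, against 16.6% of all detected genes). Their median deviations were -0.21, -0.51, 0.89 and -0.10. Adipoq, adiponectin, read 2458, 2158, 6193 and 2774, Fabp4, the fatty acid binding protein of fat, 11778, 6352, 17973 and 10104, and the adipsin gene Cfd 24760, 17678, 46662 and 19633. The highest array, control 3, lay 2.87-fold above the lowest in Adipoq, 2.83-fold in Fabp4 and 2.64-fold in Cfd. Leptin, Lep, was on no array, and the 7 detected genes summed to 43648, 29768, 80159 and 37599. The part of fat or ovarian RNA in the other values of control 3 was not tested.

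**Figure D4:**
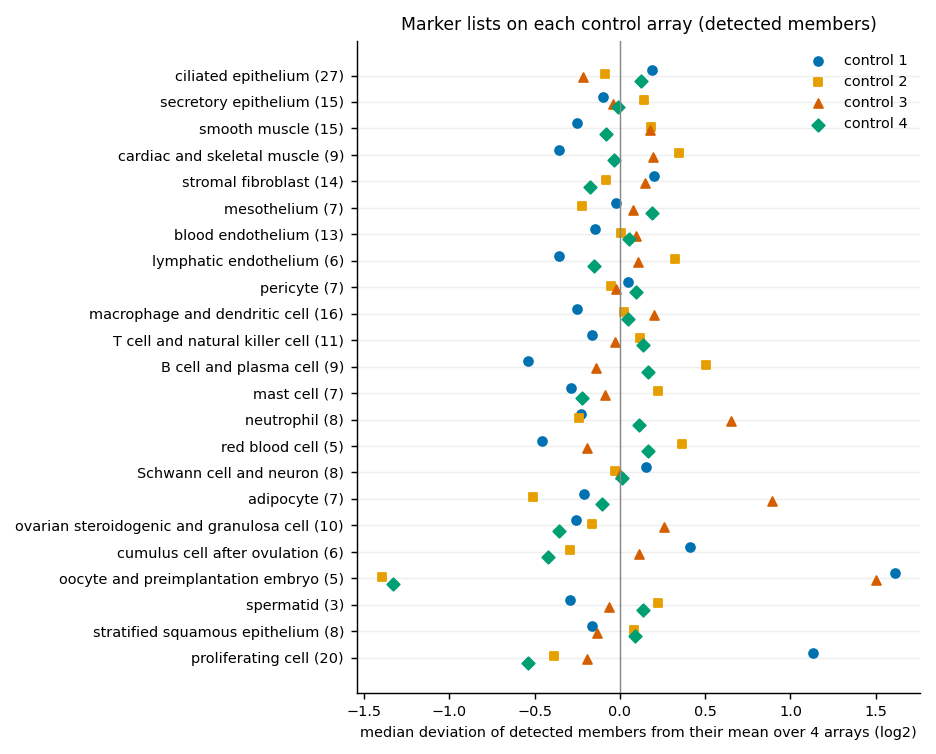
Median deviation (log2) of the detected members of each cell type list from their own means over the 4 control arrays, 1 point for each array, with the number of detected members after each name. The oocyte and embryo list was high on controls 1 and 3 (1.61 and 1.50) and low on 2 and 4, the proliferation list high on control 1 (1.13), and the adipocyte list high on control 3 (0.89).

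Genes of the oocyte and early embryo divided the arrays in another way. Gdf9, the growth factor that the oocyte secretes, read 2945, 250, 2249 and 211 (SD 2.02) at chr11:53394562-53394621 of mm7. Padi6, an enzyme of the egg's cytoplasmic lattices, read 817, 49, 1270 and 39 (SD 2.64). Zp3, the sperm-binding zona pellucida protein, read 597, 102, 761 and 113, and a second Zp3 probe 478, 72, 714 and 65. Dppa3, a maternal factor of the zygote, read 521, 80, 300 and 68. Controls 1 and 3 were above controls 2 and 4 in each of these genes, as in all 5 list genes detected on all 4 arrays (17.96% of all detected genes had this higher pair).

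A further 6 oocyte genes were well above background on controls 1 and 3 only. Ooep gave 360, 28, 307 and 9.4, Zar1 361, 19, 356 and 9.9, Nlrp5 118, 6.4, 119 and 19, Zp2 95, 7.5, 142 and 6.3, Nobox 254, 15, 105 and 11, and Oosp1 218, 14, 107 and 7.0. These 6 passed detection only through the arrays where they were high and are no support for the split. Zscan4c, of a repeated family expressed at the 2-cell stage, had another order, at 137, 13, 57 and 127. Another 4 of the 25 most varied genes had controls 1 and 3 well above the other pair, namely Oas1d (1047, 58, 613 and 77), Tescl (7097, 582, 1838 and 283), Mgarp (673, 157, 1866 and 156) and H1f8, the oocyte linker histone (1854, 144, 1114 and 205). The 5 detected list genes summed to 4991, 558, 4702 and 492. The methods state that embryos were removed, and whether oocyte or embryo RNA remained was not tested. Of the genes of cumulus cells, which surround the ovulated egg, Vcan read 248, 134, 180 and 127, and Areg 863, 272, 263 and 255, high on control 1 alone.

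**Figure D5:**
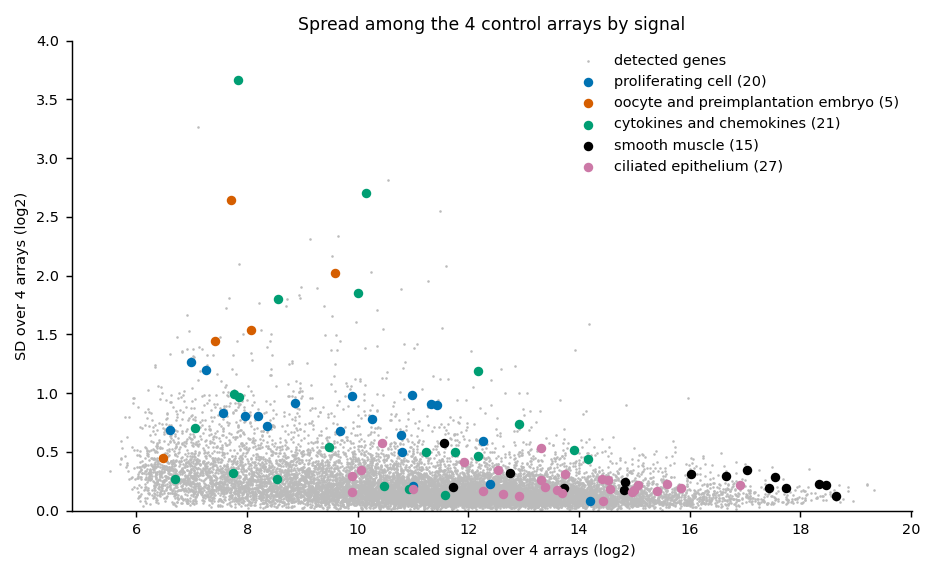
SD over the 4 control arrays against mean scaled signal (both log2) for the 14278 detected genes (grey), with the detected members of 5 lists in colour. Smooth muscle and ciliated genes had median SDs of 0.222 and 0.202, against 0.170 for all detected genes. The median SD fell with signal, to 0.126 in the brightest of 4 groups of detected genes. Above an SD of 1 lay 4 of 5 oocyte and embryo genes and several chemokines.

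Cell division genes set control 1 apart. All 20 genes of the proliferation list were detected and all 20 were highest on control 1, a place that array held in 38.3% of all detected genes. Mki67, the proliferation antigen, read 5519, 1495, 1644 and 1221, and a second probe 1065, 353, 367 and 249. Bub1, of the spindle checkpoint, read 459, 73, 105 and 72 (SD 1.27), Aurkb, a mitotic kinase, 520, 101, 118 and 86, and Top2a, which untangles sister chromatids, 642, 216, 298 and 183. Control 4 was lowest in 19 of the 20, against 19.1% of all detected genes. The replication clamp Pcna, also used in repair, hardly moved, at 20082, 18858, 18306 and 17666 (SD 0.08). Over the list the median SD was 0.790, and 0.173 without control 1.

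Some plasma and mast cell genes were highest on control 2, namely 5 of 9 detected B and plasma cell genes, with the other 4 highest on control 4, and 4 of 7 detected mast cell genes (23.0% of all detected genes were highest on control 2). Jchain, the joining chain of secreted antibodies, read 5873, 18838, 6937 and 5796, with a second probe at 1970, 5193, 2022 and 1728. The immunoglobulin chain segment Igkv4-63 read 57, 1151, 165 and 164 and was among the 25 most varied. The probes of the antibody heavy chain Ighm differed, at 4828, 6660, 7623 and 7628 with the brightest, 728, 1080, 1771 and 1187 with the next and 58, 189, 87 and 48 with the dimmest, which alone was highest on control 2. The mast cell proteases Cma1 (782, 2571, 811 and 953), Cpa3 (178, 686, 213 and 289) and Mcpt4 (189, 540, 160 and 155) were all highest on control 2, and without it the mast cell list's median SD fell to 0.327 from 0.812.

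Some of the most varied genes fell into pairs of arrays that matched none of these lists. Padi4, a histone-modifying deiminase, read 285, 269, 9337 and 7021, and its other 2 probes 8.7, 7.3, 272 and 199 and 228, 177, 6582 and 5042. Controls 3 and 4 were thus far above controls 1 and 2 with all 3 probes. Prim2, a primase subunit, ran the reverse way, at 1798, 1192, 155 and 177. That rests on 1 probe, as a second Prim2 probe was well above background on no array, at 9.0, 7.5, 14.3 and 6.3. Scgb3a1, a secretoglobin of airway and other mucosae, read 6180, 10027, 3900 and 387, low on control 4. Krt12, a keratin best known from the cornea, read 335, 2711, 188 and 1194, and its second probe was well above background on 1 array. The gastrin receptor Cckbr read 1195, 795, 71 and 479 (SD 1.80). Its second probe differed less, at 111, 100, 52 and 74 (SD 0.50). Mmp7, a secreted protease of epithelia, read 271, 4109, 4548 and 1925, low on control 1.

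Common reference genes varied about as much as the median gene. All 12 were detected, with a median SD of 0.154. Sdha read 8604, 8796, 8841 and 8529 (SD 0.02), Pgk1 68237, 66478, 66374 and 68930 (SD 0.03) and Gapdh 52548, 55815, 53904 and 55732 (SD 0.04). These SDs belong to single probes, as other Sdha probes had SDs of 0.09 and 0.20, another Pgk1 probe 0.13 and another Gapdh probe 0.05. Actb, cytoplasmic actin, moved more, at 24909, 42769, 45179 and 34519 (SD 0.39), lowest on control 1 as Acta2 and Myh11 were. The annotation places the Gapdh and Actb probes used here on chr1 and chrX, and the other probes of these genes on chr6 and chr5.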

How the data were processed

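Total RNA of 4 control oviduct samples was labelled with Cy3 and hybridised to Agilent Whole Mouse Genome 4 × 44 arrays (1 dye). The authors deposited for each array the spot table of Agilent Feature Extraction (version 9.5). The processed signal the authors deposited is an intensity on a linear scale, already background-adjusted and detrended within the array, and left unscaled across arrays. Their series-wide table held the same number for each of the 45018 spots. The methods' later processing in Rosetta Resolver was not part of these values.

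The 1639 control spots and outlier spots (97 to 135 an array) were left out, log2 intensities of a probe were averaged, and arrays were shifted to a shared 75th percentile. Probes were named through RefSeq accessions (23082) or through symbols or synonyms (9655). The other 8437 probes got no symbol and were left out of the gene counts and gene rankings. Positions follow the design's mm7 annotation. A gene took the probe with the highest mean. For some genes named here, Pgr, Trp63 and Vcan among them, further probes were well above background on no array. Named genes were the 25 brightest, the 25 with the highest SD over arrays (no saturated or outlier spot), members of 46 gene lists (23 of cell type markers, 8 of receptors, 10 of secreted products and 5 others) and reference genes. The members and lists were chosen with earlier results of these data known. With 1 group no comparison was tested and no p-value is given, and the spread is that among 4 samples. Arrays far from the rest were marked by Dixon's outlier test. The number of arrays limits the precision. Tools were R 4.3.3 with limma (version 3.58.1, quantile and normexp alternatives) and data.table (version 1.17.8), and Python 3.11.15 with numpy 2.4.6, pandas 2.3.3, statsmodels 0.14.6 and matplotlib 3.10.9. The ranking by SD was run on simulated data with known SDs, a check of the code and not of any gene named here. Alternatives were other scalings, background corrections, probe and detection rules and leaving out each array. The 4 Gen arrays were not used here. Single values of a few list members are not reported here.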

Additional observations from a re-analysis of the deposited data

Results flagged for a closer look

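An array was far from the other 3 when the gap to its nearest neighbour, as a share of the range of the 4 arrays, passed Dixon's critical value for 4 samples, as chance alone does in about 1 of 20 groups. Among 195 genes, list medians and array measures looked at, 18 (9.23%) passed, and 8.27% of all detected genes did. The genes looked at include those picked for a high SD over the same arrays, so these flags are no separate evidence for a pattern. Control 3 was the far array, on the high side, in 10 of them. These were Cxcl1 (0.962), Cxcl5 (0.934), Ccl20 (0.944), Ccl2 (0.920), Csf2 (0.880), Csf1 (0.862) and Tlr2 (0.832) among chemokine, cytokine and receptor genes, Star (0.929) and Cyp11a1 (0.857) of steroid synthesis, and the exchanger Slc26a4 (0.918). Ccl20 and Csf2 were well above background on control 3 alone, so their flags rest on the array that let them pass. Cxcl1 and Cxcl5 were near background on the other arrays.

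Control 1 was far on the high side for the prostaglandin receptor Ptger2 (0.953), the growth factor Areg (0.947) and the cyclin Ccnb1 (0.872), and on the low side for the median of the vasoactive peptide receptors (0.857). Control 2 was far on the high side for Jchain (0.847) and for the mast cell proteases Mcpt4 (0.842) and Cma1 (0.834). Control 4 was far on the low side for the ribosomal protein gene Rps23 (0.862), whose whole range was 398284 to 442483.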

How the results depend on the processing

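The numbers of probes and genes detected and the detected marker, receptor and secreted product genes moved by less than 1.5 times under every alternative run, with 24961 to 29921 probes and 14282 to 15986 genes (here a gene counts with any of its probes). The median SD was 0.263 without scaling, 0.160 to 0.186 under the other settings that kept all 4 arrays, and 0.108 to 0.177 when 1 array was left out, the lowest without control 1. Averaging all probes of a gene kept 12 of the 25 brightest genes, and the other settings kept 22 or more. Of the 25 most varied genes, 14 remained when detection on at least 3 arrays was asked, 4 with detection on at least 1 array and 8 with the looser test of a positive and significant signal, rules that widen the set of genes ranked. Leaving out 1 array kept 12 to 22, the fewest without control 3. Other scalings, the spike-in scaling (chosen after seeing the data) included, normexp and the 2 other measures of variation kept 22 or more. The median SD of the proliferation list was 0.173 without control 1, and those of the chemokine, adipocyte and ovarian lists were 0.293, 0.302 and 0.419 without control 3, from 0.517, 0.628 and 0.640. That of the B and plasma cell list, 0.580, was 0.372 without control 1, 0.381 without control 2 and 0.382 with normexp, and that of the mast cell list, 0.812, was 0.327 without control 2. List medians were added to the values recomputed after seeing the data, and the cause of these moves was not tested. Of 2205 recomputed means of named genes 69 moved by more than the SD of the gene, all with averaged probes or normexp. Of as many recomputed SDs 195 moved by more than 1.5 times up or down. Among these 37 were without scaling, 33 without control 1, 29 without control 3 and 23 with quantile scaling. No paired analysis was possible because the values come from 1 group and from no test. Signals near background limit what can be said of dim genes.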
